A study of Mus musculus with 26 samples.

Results

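This account covers 10 genes of the p53 response and of cell survival in mouse microglia: Trp53, Cdkn1a, Mdm2, Bbc3, Pmaip1, Gadd45a, Gadd45b, Gadd45g, Bcl2l11 and Mcl1. They were chosen by name, by matching the accession of each array probe to these symbols, and each gene was read from its brightest probe over 26 arrays. All 10 had a probe, 13 probes in all, and all 10 were among the 24738 genes that passed the detection filter and were tested.

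Trp53 encodes p53, a transcription factor that DNA damage and other stresses stabilise. It raises Cdkn1a, whose product p21 stops the cell cycle, Gadd45a, a paralog of Gadd45b and Gadd45g whose small proteins act in growth arrest, DNA repair and p38 and JNK kinase signalling, and Mdm2, whose product marks p53 itself for degradation. When damage is severe, the BH3-only proteins made from Bbc3 (PUMA), Pmaip1 (NOXA) and Bcl2l11 (BIM) set off mitochondrial apoptosis, and Mcl1, a member of the Bcl2 family that holds it back, has a short-lived product whose level follows cytokine and growth factor signals in myeloid cells.

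The cells were EGFP-positive cells sorted by flow cytometry from C57BL/6 mice that all carried one EGFP-marked Cx3cr1 allele (CX3CR1EGFP/+), a reporter of microglia that other Cx3cr1-expressing macrophages share. Mice that were otherwise wild type (WT) or carried TLR-DKO, a genotype whose deleted genes the labels do not spell out, underwent repeated social defeat stress (R-SDS) or, as naive controls, cage transfer. Microglia came from one of 2 regions, the nucleus accumbens (NAc) or the medial prefrontal cortex (mPFC). Tissue taken with a 1.5 mm punch 1.5 h after the last session was pooled from 3 to 6 mice to give 500 pg of RNA for one array. By the labels' behavioral phenotype, stressed WT animals were susceptible and stressed TLR-DKO animals resilient, and the age is not given in the sources used here. WT mice gave 3 arrays in each of their 4 groups. TLR-DKO mice gave 4 naive and 3 R-SDS arrays in the mPFC, and in the NAc 3 naive and 4 R-SDS arrays. The series describes 2 independent experiments with different mice. The p-values below measure the spread between pools of this kind, and in such bulk samples fewer cells of a type and less RNA per cell cannot be told apart.

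A level is the log2 signal of a probe minus the log2 of its array's 75th percentile, so 0 stands for the 75th percentile, and a difference of 1 is a doubling of signal. Between 49.97% and 71.0% of spots were well above background on an array, and the number of arrays limits the precision. WT mPFC R-SDS replicate 3 stood apart, with a mean correlation to the other arrays of 0.79, followed by TLR-DKO mPFC naive replicate 1 at 0.83. Tlr2 was well above background on 12 of 12 WT arrays and on 0 of 14 TLR-DKO arrays, while the Tlr4 probe was well above background on all 26, with group means between 2.00 and 2.96. The Cx3cr1 means lay between 8.25 and 8.69. All 12 microglial marker genes were detected in every group. Markers of other cells were present too: the summed signal of 9 perivascular macrophage markers ran from 3.95 to 6.66 on the log2 scale in mPFC arrays and from 1.33 to 4.08 in NAc arrays. Ms4a1 of the B cell markers and S100a9 of the neutrophil markers were well above background on no array.

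The 10 members were compared between R-SDS and naive mice in each genotype and region, between genotypes, between regions, and for a difference of the stress effect between genotypes (the interaction), 14 comparisons in all. None of the 10 members passed an adjusted p of 0.05 in limma in any of the 14. For the stress effect, the share of all tested genes past this threshold was 0.00808% in WT mPFC, 0% in TLR-DKO mPFC, 0% in WT NAc, 0.00808% in TLR-DKO NAc and 0% for the average of these 4. For the interaction it was 0% in the mPFC, in the NAc and over both. For TLR-DKO against WT it was 0.0121% in naive mPFC, 0.0121% in R-SDS mPFC, 0.0121% in naive NAc, 0.00808% in R-SDS NAc and 0.0202% on average. For NAc against mPFC it was 0.897%. The test therefore called few genes of any kind outside the region comparison, and a member's failure to pass does not show that it was unchanged.

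**Figure D1:**
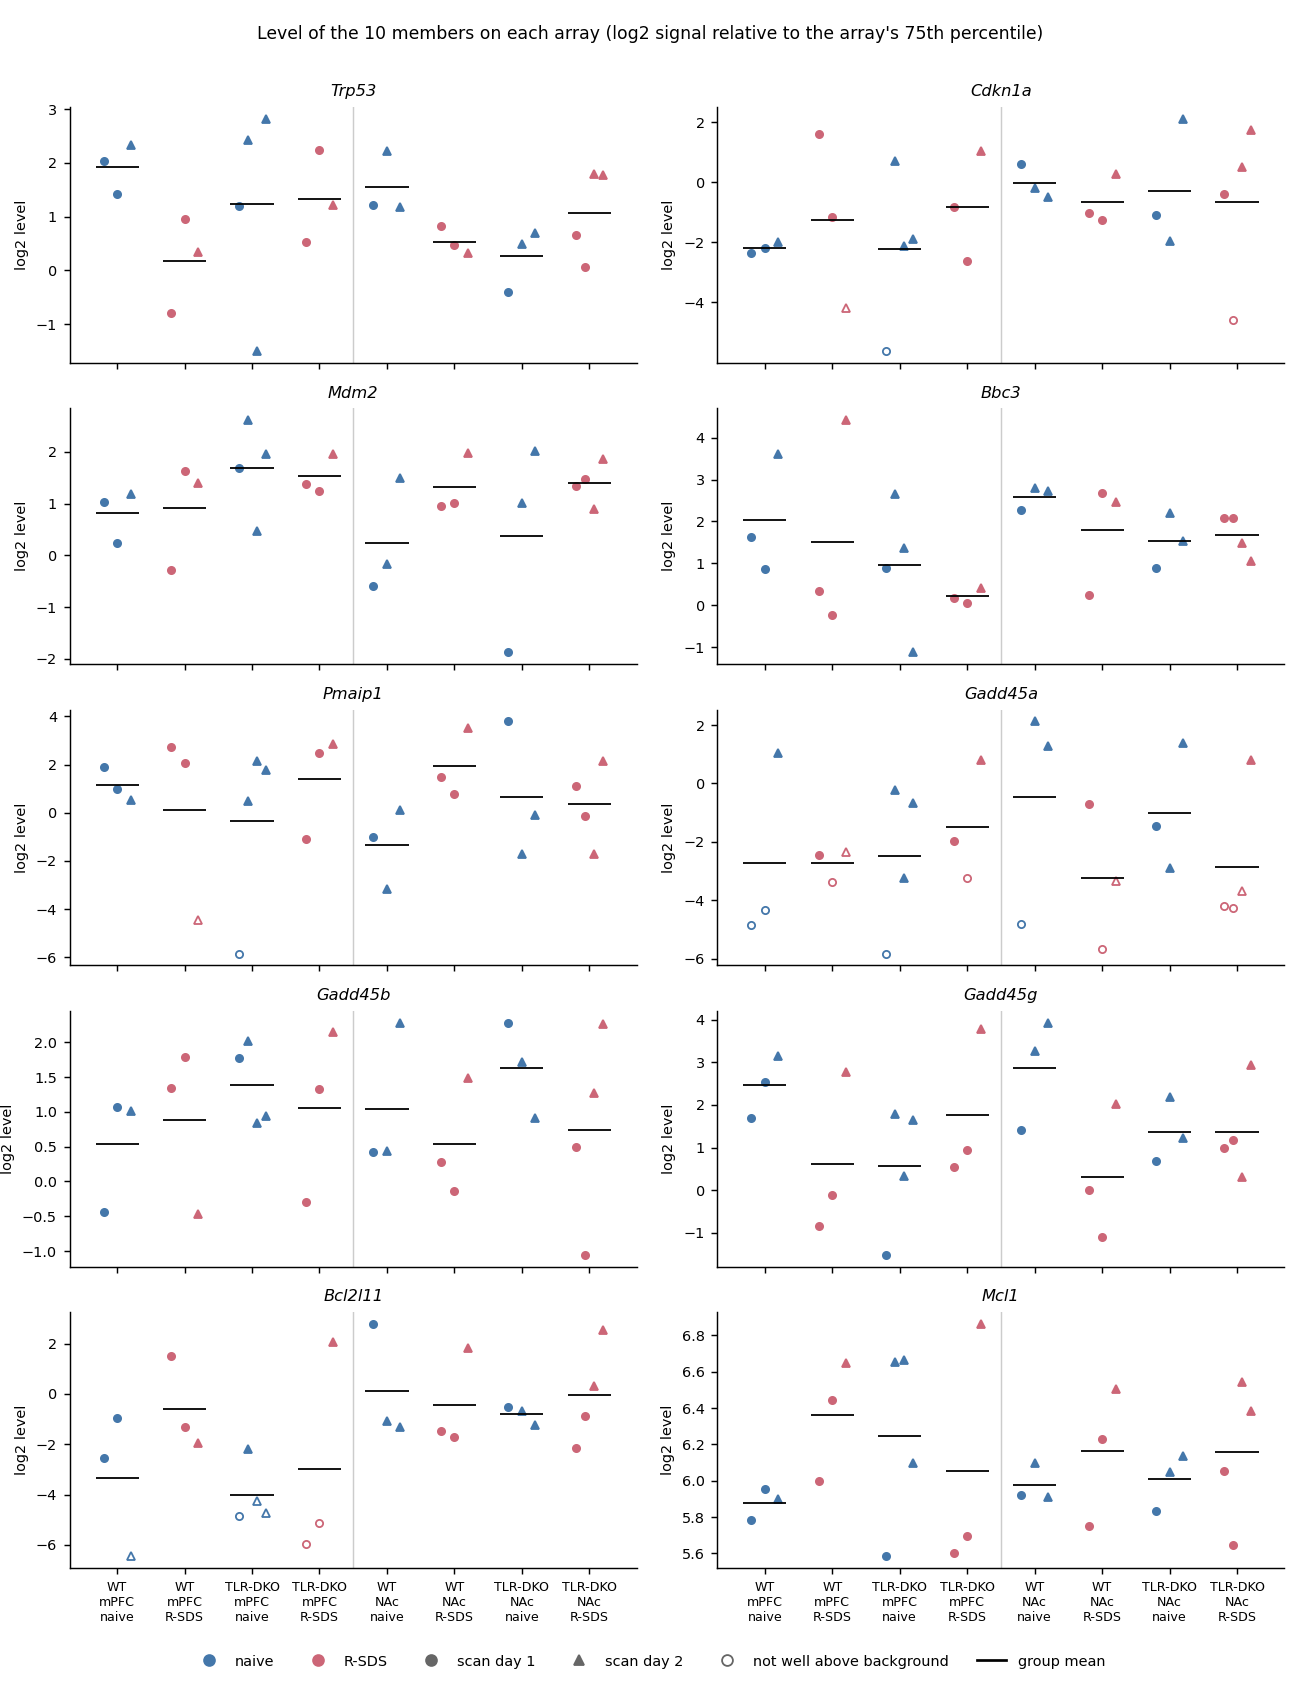
Level of each of the 10 members on each of the 26 arrays, as log2 signal over that array's 75th percentile, by group. Blue points are naive and red points R-SDS arrays, circles and triangles are scan days 1 and 2, open points were not well above background, and bars are group means. The vertical scales differ between genes: Mcl1 stayed between 5.58 and 6.86, while Gadd45a and Pmaip1 spread over more than 7 log2 units.

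At an unadjusted p under 0.05, 1 of the 10 members showed a stress effect in WT mPFC (Trp53), where 5.9% of all genes did, and 1 in WT NAc (Gadd45g), where 2.93% did. The stress effect gave 0 members in TLR-DKO mPFC (5.07% of all genes), in TLR-DKO NAc (3.04%) and on average (5.47%). The averaged interaction gave 2 members, Trp53 and Gadd45g, against 4.82% of all genes, with 0 in the mPFC alone (6.09%) and in the NAc alone (2.52%). Between genotypes it was 0 members in naive mPFC (5.69% of all genes), R-SDS mPFC (5.84%), naive NAc (3.3%), R-SDS NAc (4.03%) and on average (8.23%). Between regions it was 1 member, Bcl2l11, against 15.4% of all genes. These counts lie near the background shares, at 0 or 1 of 10 in all comparisons but the averaged interaction. Its 2 of 10 against 4.82% is the largest count among all the comparisons made. With 10 members it rests on few genes, and whether it exceeds the background share was not tested.

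The members differed in sign. Averaged over the 4 pairs of groups, the stress effect was above 0 for 5 members and below 0 for 5, with a median of -0.09 against 0.04 over all genes, and it ranged from -0.91 for Gadd45a to 0.98 for Bcl2l11. Both ends were unstable: within the first and the second scan day Gadd45a gave 0.94 and -1.74, and Bcl2l11 -1.04 and 3.92. Gadd45a was -0.22 with slide as a block and -0.44 without WT mPFC naive replicate 3, and Bcl2l11 was 0.35 without TLR-DKO mPFC R-SDS replicate 3. The precision differed widely between members. The SD between arrays within a group was 0.40 for Mcl1, at the 11.4th percentile of all tested genes, but 2.57 for Gadd45a and 2.56 for Pmaip1, at the 99.4th percentile. For every member, each step between neighbours in the order of its 8 group means was smaller than the larger SD of the pair.

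**Figure D2:**
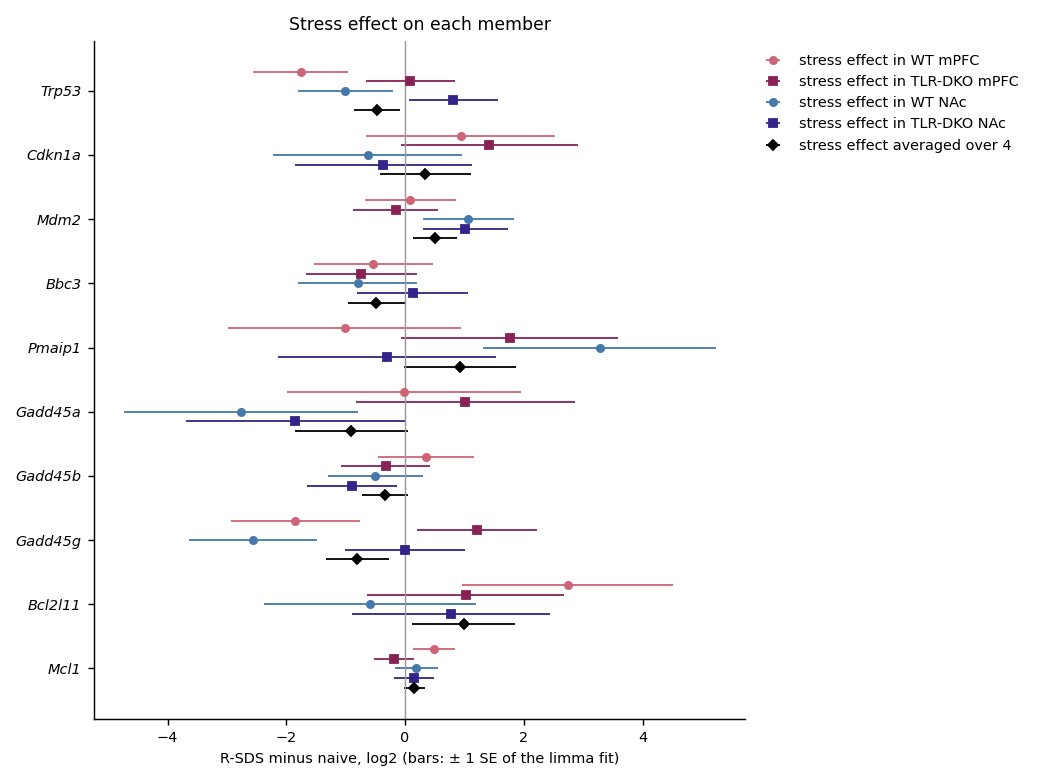
Stress effect (R-SDS minus naive, log2) on each member in the 4 pairs of groups and on their average, with bars of ± 1 SE from the limma fit. Trp53 and Gadd45g lie below 0 in both WT pairs and at or above 0 in the TLR-DKO pairs, where the sign of Trp53 in the mPFC and of Gadd45g in the NAc varied with the processing, and the bars of Gadd45a, Pmaip1 and Bcl2l11 are the widest.

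Trp53, the transcription factor of the set, was lower after stress in WT mice at the level of the arrays. In WT mPFC it read 2.03, 1.42 and 2.34 on the naive arrays and -0.80, 0.95 and 0.35 on the R-SDS arrays. In WT NAc the naive arrays read 1.22, 2.22 and 1.18 and the R-SDS arrays 0.82, 0.47 and 0.32. In both regions every WT R-SDS array thus lay below every WT naive array. The difference was -1.76 ± 0.80 (SE) in WT mPFC, with an unadjusted p of 0.0389 and an adjusted p of 0.83 in limma, and -1.01 ± 0.80 in WT NAc, with an unadjusted p of 0.222 and an adjusted p of 0.9999. The NAc value was -0.67 without naive replicate 2.

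The TLR-DKO arrays did not show that separation. TLR-DKO mPFC gave 1.20, 2.43, -1.50 and 2.82 in naive and 0.53, 2.23 and 1.22 in R-SDS samples, and TLR-DKO NAc gave -0.40, 0.50 and 0.69 in naive and 0.66, 0.06, 1.80 and 1.78 in R-SDS samples. Both pairs overlapped, and their differences were 0.09 ± 0.75 in the mPFC and 0.81 ± 0.75 in the NAc. The mPFC value took either sign with the processing and with the array left out, from -0.82 without naive replicate 3 to 0.62 without naive replicate 4, and the NAc value was 0.48 without naive replicate 1. Averaged over the regions, the stress effect on Trp53 was higher in TLR-DKO than in WT by 1.83 ± 0.77 (95% interval 0.22 to 3.44), with an unadjusted p of 0.0275 and an adjusted p of 0.93. It was 1.58 on the first scan day and 2.27 on the second. Leaving out single arrays moved it between 1.38 (without TLR-DKO mPFC naive replicate 3) and 2.10. Among naive arrays, Trp53 in TLR-DKO minus WT was -1.28 ± 0.80 in the NAc and -0.69 ± 0.75 in the mPFC. The NAc arrays of this pair did not overlap, and the share of all genes was not counted for it. These naive arrays also enter the interaction, so the values are not independent.

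Counted over all members, 2 of 10 had groups that did not overlap in WT mPFC, Trp53 below and Mcl1 above the naive arrays, where 8.1% of all genes did not overlap. In WT NAc it was also 2 of 10, Trp53 below and Pmaip1 above, against 8.17% of all genes. The TLR-DKO pairs gave 0 of 10 in the mPFC, against 6.25%, and 0 of 10 in the NAc, against 4.22%. The TLR-DKO pairs hold 7 arrays and the WT pairs 6, so these shares cannot be compared between genotypes.

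Mdm2, the ubiquitin ligase that p53 induces and that degrades p53, was well above background on all 26 arrays. In WT NAc it read -0.59, -0.17 and 1.50 on naive and 0.95, 1.01 and 1.98 on R-SDS arrays, a difference of 1.07 ± 0.77. In TLR-DKO NAc the naive arrays read -1.87, 1.01 and 2.01 and the R-SDS arrays 1.34, 1.48, 0.90 and 1.87, a difference of 1.01 ± 0.72. Both pairs overlapped, the adjusted p was 0.9999 in WT NAc and 0.99998 in TLR-DKO NAc, and the TLR-DKO value fell to -0.11 without naive replicate 1, the lowest array. The WT value ran from 0.65 without naive replicate 1 to 1.69 without naive replicate 3. Over the 4 pairs the average was 0.50 ± 0.37 (adjusted p 0.97), and it was 0.22 without TLR-DKO NAc naive replicate 1 and 1.13 within the first scan day.

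Cdkn1a, which encodes the cell cycle inhibitor p21, gave an averaged stress effect of 0.34 ± 0.77 (adjusted p 0.98). Its levels ran from -5.61 to 2.11, and 3 of 26 arrays were not well above background. The average was -0.014 without WT mPFC R-SDS replicate 1 and 0.71 without replicate 3 of the same group. A second Cdkn1a probe, well above background on 15 arrays, did not follow the first over the 26 arrays (Pearson r -0.02), and its averaged stress effect was 0.23 ± 0.36.

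Sequences of the 250 bases before each annotated start site were read from RefSeq (GRCm38.p6). The set of windows used left out 1 chromosome and held 9 members, with 13 start sites in all. Pmaip1 had no window in it. Cdkn1a is shown as a classical p53 target, and the 3 Gadd45 genes so that the paralogs can be compared. Sequences run 5′ to 3′ on the gene's strand and end at the base before the start. Capitals mark matches to the p53 decamer (1 arm of a p53 response element, by its usual consensus), TATAA (gene strand only), CCAAT or GGGCGG. All but TATAA were searched on both strands, and adjacent matches may overlap.
Cdkn1a is the first of its 2 annotated start sites, chr17:29090729-29090978, plus strand, Gadd45a is chr6:67037408-67037657, minus strand, Gadd45b is chr10:80929841-80930090, plus strand, and Gadd45g is chr13:51846425-51846674, plus strand.
Cdkn1a: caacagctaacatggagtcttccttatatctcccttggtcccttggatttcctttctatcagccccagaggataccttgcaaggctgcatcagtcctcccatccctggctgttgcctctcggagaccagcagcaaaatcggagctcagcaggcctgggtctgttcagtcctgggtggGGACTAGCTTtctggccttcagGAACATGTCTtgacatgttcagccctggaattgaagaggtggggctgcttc
Gadd45a: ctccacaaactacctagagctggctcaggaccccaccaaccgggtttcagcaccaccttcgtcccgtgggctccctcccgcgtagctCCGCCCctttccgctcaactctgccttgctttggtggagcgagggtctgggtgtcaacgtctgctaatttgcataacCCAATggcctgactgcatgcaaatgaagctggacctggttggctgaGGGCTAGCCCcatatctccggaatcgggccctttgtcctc
Gadd45b: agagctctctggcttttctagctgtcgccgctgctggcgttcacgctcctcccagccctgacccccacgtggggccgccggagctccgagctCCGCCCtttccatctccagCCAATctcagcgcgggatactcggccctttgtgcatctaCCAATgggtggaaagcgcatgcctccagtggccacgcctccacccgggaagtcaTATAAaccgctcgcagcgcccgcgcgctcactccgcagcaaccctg
Gadd45g: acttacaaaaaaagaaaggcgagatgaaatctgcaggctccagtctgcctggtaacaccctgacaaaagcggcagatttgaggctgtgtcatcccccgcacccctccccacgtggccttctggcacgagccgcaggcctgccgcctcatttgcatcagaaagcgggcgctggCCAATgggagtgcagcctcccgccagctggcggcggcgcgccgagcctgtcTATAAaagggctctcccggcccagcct
The Cdkn1a window holds 2 p53 decamers, from base -73 to -64 and from -51 to -42 relative to the start. Gadd45a holds 1, from -40 to -31, and neither Gadd45b nor Gadd45g holds these letters. The window of the second Cdkn1a start site, not printed here, holds no p53 decamer either and has TATAA at -25. Which Cdkn1a start site the array probes read was not examined. Windows of Trp53 and Mdm2 hold 1 p53 decamer each, and those of Bbc3, Bcl2l11 and Mcl1 hold none. Of the 32851 promoter windows in the set used, 7.126% hold at least 1. TATAA lies at -27 in Gadd45g and at -46 in Gadd45b, against 16% of all windows, and is not among the letters of the Gadd45a window. CCAAT is in all 3 Gadd45 windows, against 33.85% of all windows. GGGCGG is in those of Gadd45a and Gadd45b, against 32.74%. These matches are letters in a window and no measure of binding.

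Averaged over both regions, Gadd45g showed the widest difference of the stress effect between genotypes among the 10 members. In WT mPFC it read 1.68, 2.55 and 3.15 on the naive arrays and -0.83, -0.11 and 2.78 on the R-SDS arrays. In WT NAc the naive arrays read 1.42, 3.26 and 3.93 and the R-SDS arrays 0.0043, -1.10 and 2.03. One R-SDS array in each region reached into the naive range, so both pairs overlapped. The difference was -1.85 ± 1.08 in WT mPFC (unadjusted p 0.102, adjusted p 0.83) and -2.56 ± 1.08 in WT NAc (unadjusted p 0.0277, adjusted p 0.9999). With single arrays left out, the WT mPFC value was lowest at -2.93, when stressed replicate 3 was dropped, and highest at -1.12, when stressed replicate 1 was, and the WT NAc value ran from -3.42 to -1.86.

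In TLR-DKO mPFC the direction of the means was the opposite: naive arrays read -1.52, 1.80, 0.32 and 1.64 and R-SDS arrays 0.55, 0.95 and 3.79, a difference of 1.21 ± 1.01. It fell to 0.19 without R-SDS replicate 3, the highest of these 7 arrays. With slide as a block it was 2.26, and within the 2 slides it was 2.27 and 2.54. TLR-DKO NAc read 0.68, 2.18 and 1.22 in naive and 0.99, 1.18, 0.31 and 2.93 in R-SDS samples, a difference of -0.01 ± 1.01 that took either sign with the processing. The interaction was 3.05 ± 1.48 in the mPFC (unadjusted p 0.0517) and 2.55 ± 1.48 in the NAc (unadjusted p 0.0996). Averaged over both it was 2.80 ± 1.05 (95% interval 0.63 to 4.98), with an unadjusted p of 0.0142 and an adjusted p of 0.93. Leaving out single arrays moved the average between 2.30 (without TLR-DKO mPFC R-SDS replicate 3) and 3.35.

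Gadd45g also differed between the scan days. It was higher on the second day than on the first in 8 of 8 groups, by 2.05 on average. Each slide held arrays of a single region and a single scan day, and within slides the WT pairs separated: on 4 of 4 slides every WT R-SDS array lay below every WT naive array. Trp53 did the same, which makes 2 of 10 members, where 0.768% of all genes lay below on all 4 slides and 1.7% above, with 0 of 10 members above. This count was made after the values had been seen, and each slide held few WT arrays. On the mPFC slide of the second scan day a single WT array of each condition was compared, for Gadd45g 3.15 (naive) and 2.78 (R-SDS). TLR-DKO arrays were not part of this count, and no share of all genes was counted for them. In TLR-DKO mPFC every Gadd45g R-SDS array lay above every naive array of its slide, on both slides. In TLR-DKO NAc the same held on the slide of the first scan day, and the arrays overlapped on the other. With slide as a fixed block, the averaged interaction of Gadd45g was 3.21 ± 0.64, with an adjusted p of 0.54, and within the first and the second scan day it was 3.61 and 2.20. The cell markers also differed in this comparison: 0 of 12 microglial markers and 0 of 9 perivascular macrophage markers had an averaged interaction above 0, with medians of -0.31 and -1.44 against -0.14 over all genes. In WT mPFC 5 of 5 tested neuronal markers had a stress effect above 0 (median 0.94). Their summed levels ran from 4.87 to 6.62 in naive and from 5.71 to 6.84 in R-SDS arrays. Of all genes, 62.3% were above 0 in that comparison (median 0.17). Neuronal markers were above 0 for 4 of 5 in TLR-DKO mPFC (median 0.65), 4 of 5 in WT NAc (0.06) and 3 of 5 in TLR-DKO NAc (0.04). In WT NAc 9 of 9 tested astrocyte markers had a stress effect above 0 (median 0.85), where 55.0% of all genes did (median 0.06). Their summed levels ran from 3.59 to 3.91 in naive and from 4.33 to 5.33 in R-SDS arrays. Astrocyte markers were above 0 for 6 of 9 in WT mPFC (median 0.62), 7 of 9 in TLR-DKO mPFC (0.30) and 3 of 9 in TLR-DKO NAc (-0.10). The part of these cell markers in the Gadd45g and Trp53 values was not tested.

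**Figure D3:**
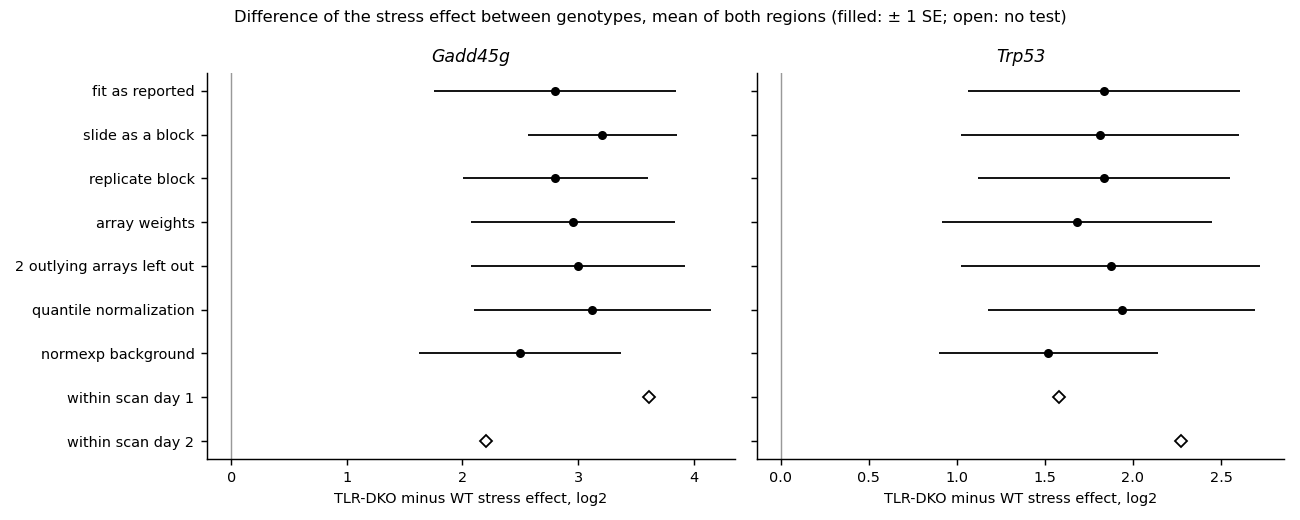
Stress effect in TLR-DKO minus stress effect in WT, averaged over both regions, for Gadd45g (left) and Trp53 (right) under 7 fits and within each scan day. Filled points carry ± 1 SE, and open points have no test. All values lie above 0, from 2.20 to 3.61 for Gadd45g and from 1.52 to 2.27 for Trp53.

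Between genotypes in naive mPFC, Gadd45g was -1.90 ± 1.01 (TLR-DKO minus WT, unadjusted p 0.0741, adjusted p 0.89). It was -1.21 without TLR-DKO naive replicate 1 and -2.96 with slide as a block, and -3.64 and -1.90 within the 2 slides. The first scan day held 1 of the 4 TLR-DKO and 2 of the 3 WT arrays of this comparison, and the gene differed between days. These naive arrays also enter the interaction, so the 2 values are not independent.

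Gadd45b, an early-response paralog induced by NF-kappaB and by neuronal activity, was well above background on all arrays and stayed between -1.06 and 2.28. Its group means spanned 1.09, from 0.54 to 1.63, against an SD within groups of 1.03, and its averaged stress effect was -0.34 ± 0.39 (adjusted p 0.98). That average was -0.17 without WT mPFC R-SDS replicate 3, and -0.73 and 0.00014 within the first and the second scan day. Gadd45a, the paralog best known as a p53 target, was well above background on 14 of 26 arrays. In WT NAc it read -4.83, 2.13 and 1.28 on naive and -0.70, -5.69 and -3.33 on R-SDS arrays, a difference of -2.77 ± 1.97 (adjusted p 0.9999) between groups that overlapped. Without naive replicate 1 that difference was -4.95, and without naive replicate 2 it was -1.47. Its sign differed between the slides, at 1.64 within the slide of the first scan day and -5.04 within that of the second. Gadd45a was higher on the second scan day in 7 of 8 groups, by 3.00 on average.

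Bcl2l11 gave the smallest adjusted p of any member, and it did so between regions. In WT mPFC it read -2.56, -0.97 and -6.45 on naive and 1.51, -1.32 and -1.95 on R-SDS arrays. TLR-DKO mPFC gave -4.86, -2.21, -4.25 and -4.75 in naive and -5.95, -5.12 and 2.08 in R-SDS samples, of which 1 of 4 and 1 of 3 were well above background. All 13 NAc arrays were well above background, at 2.78, -1.07 and -1.31 (WT naive), -1.46, -1.72 and 1.81 (WT R-SDS), -0.53, -0.68 and -1.22 (TLR-DKO naive), and -2.16, -0.87, 0.31 and 2.54 (TLR-DKO R-SDS). The NAc arrays were thus higher on average but overlapped those of the mPFC.

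The mean of the NAc groups was -0.30 and that of the mPFC groups -2.73, a difference of 2.44 ± 0.86 (unadjusted p 0.0101, adjusted p 0.19). It was 2.80 on the first scan day and 2.79 on the second. Without TLR-DKO mPFC R-SDS replicate 3 it was 3.07, with an adjusted p of 0.053, and with slide as a random block the adjusted p was 0.86. Background correction with normexp reduced the difference to 0.87. A second Bcl2l11 probe was well above background on 7 arrays and did not pass the detection filter, its region difference was 1.13 ± 0.64, and it did not follow the first over the 26 arrays (Pearson r 0.08). Perivascular macrophage markers also differed between regions: 0 of 9 were above 0 in NAc minus mPFC (median -2.58), and 1 of them, F13a1, passed the threshold (adjusted p 0.0122, and 0.23 with slide as a random block). Of all genes, 44.7% were above 0 (median -0.06). Neuronal markers were above 0 for 0 of 5 (median -0.71). Endothelial and mural markers were for 1 of 5 (-0.36, 1 past the threshold), and oligodendrocyte markers for 5 of 8 (0.12). The part of these cell markers in the Bcl2l11 value was not tested. The stress effect on Bcl2l11 in WT mPFC was 2.74 ± 1.78 (adjusted p 0.84), and it was 1.18 without naive replicate 3 and 3.92 without naive replicate 2. With normexp it was 1.36. The second probe gave 0.27 ± 1.33 in WT mPFC and -0.0020 ± 0.64 for the averaged stress effect.

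**Figure D4:**
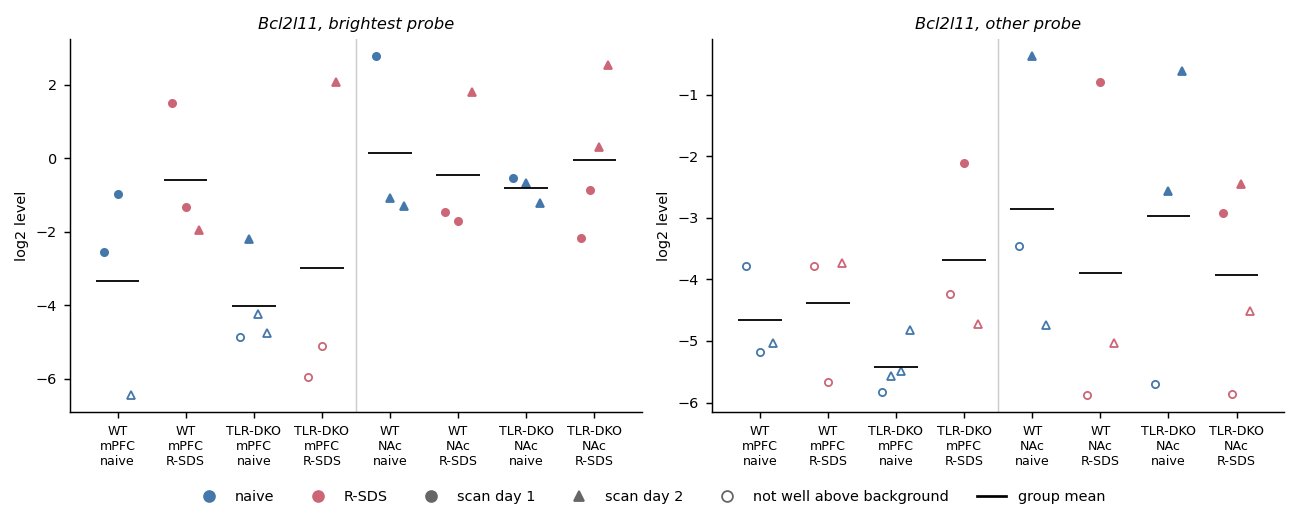
Levels of the 2 Bcl2l11 probes on each of the 26 arrays (log2 relative to the array's 75th percentile), by group, with the same symbols as in the plot of all members. The brightest probe was well above background on 20 arrays and the other on 7, and levels are not comparable between the panels.

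Bbc3, which encodes the BH3-only protein PUMA, was well above background on all arrays and ran from -1.13 to 4.43. Its averaged stress effect was -0.49 ± 0.48, its averaged genotype effect -0.89 ± 0.48 (unadjusted p 0.0805, adjusted p 0.65) and its region effect 0.72 ± 0.48 (adjusted p 0.49). Without WT mPFC R-SDS replicate 3, the highest array, the stress effect was -0.85 and the genotype effect -0.53, and without replicate 2 of that group the stress effect was -0.27. On the first and the second scan day the genotype effect was -0.26 and -2.19, and the region effect changed sign, at 1.099 and -0.27.

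Pmaip1, which encodes NOXA, the BH3-only partner of Mcl1, was higher on the stressed arrays in WT NAc. The naive arrays read -1.01, -3.18 and 0.13 and the R-SDS arrays 1.48, 0.76 and 3.52, without overlap. The difference was 3.27 ± 1.96 (unadjusted p 0.11, adjusted p 0.9999), and over all arrays the gene ran from -5.85 to 3.79. Both arrays on which Pmaip1 was not well above background were the 2 that stood apart from the rest. The direction differed between pairs, with -1.02 ± 1.96 in WT mPFC, 1.76 ± 1.83 in TLR-DKO mPFC and -0.31 ± 1.83 in TLR-DKO NAc. The stress effect averaged over the 4 pairs was 0.93 ± 0.95. It became 0.47 without TLR-DKO mPFC naive replicate 1 and 1.50 without WT mPFC R-SDS replicate 3.

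Mcl1, the survival factor that NOXA and BIM bind, was the most precisely measured member. In WT mPFC the naive arrays read 5.78, 5.95 and 5.90 and the R-SDS arrays 6.00, 6.44 and 6.65, without overlap. The difference was 0.49 ± 0.36 (adjusted p 0.85), became 0.019 under quantile normalization and was 0.34 without R-SDS replicate 3. Over the 4 pairs it averaged 0.16 ± 0.17 (95% interval -0.20 to 0.52, adjusted p 0.98), and was 0.057 without TLR-DKO mPFC R-SDS replicate 3 and -0.037 with array weights. Mcl1 was higher on the second scan day in 8 of 8 groups, by 0.50 on average. A second Mcl1 probe followed the first (Pearson r 0.68) and gave an averaged stress effect of 0.36 ± 0.21. On that probe the WT mPFC groups overlapped, at 4.08, 3.56 and 3.32 in naive and 4.45, 4.35 and 3.71 in R-SDS samples. Its difference there was 0.52 ± 0.44.

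For each of the 6 members well above background on all 26 arrays, the 2 genes with the most similar levels were sought among 7842 others. The closest match of any was to Mcl1: Cd83, a surface protein of activated myeloid cells, with a Pearson r of 0.88 and a Spearman rho of 0.90, and Il1a, which encodes interleukin-1 alpha, with 0.82 and 0.83. With the scan day means removed, r was 0.83 and 0.75. Gadd45g was nearest to Pisd-ps1 (r 0.75) and Gli1 (0.75), which fell to 0.61 and 0.57 with the day means removed. Trp53 was nearest to Ano10 (0.74) and Tcp11l1 (0.67), and Bbc3 to Tmem215 (0.75) and Rc3h1 (0.73). Mdm2 was nearest to Hbegf (0.70) and Man1a2 (0.69), and Gadd45b to Igsf6 (0.68) and Bicd2 (0.67). These genes were picked as the highest of 7842, and the 26 arrays share slides, scan days and groups, so the correlations describe these arrays and carry no p.

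**Figure D5:**
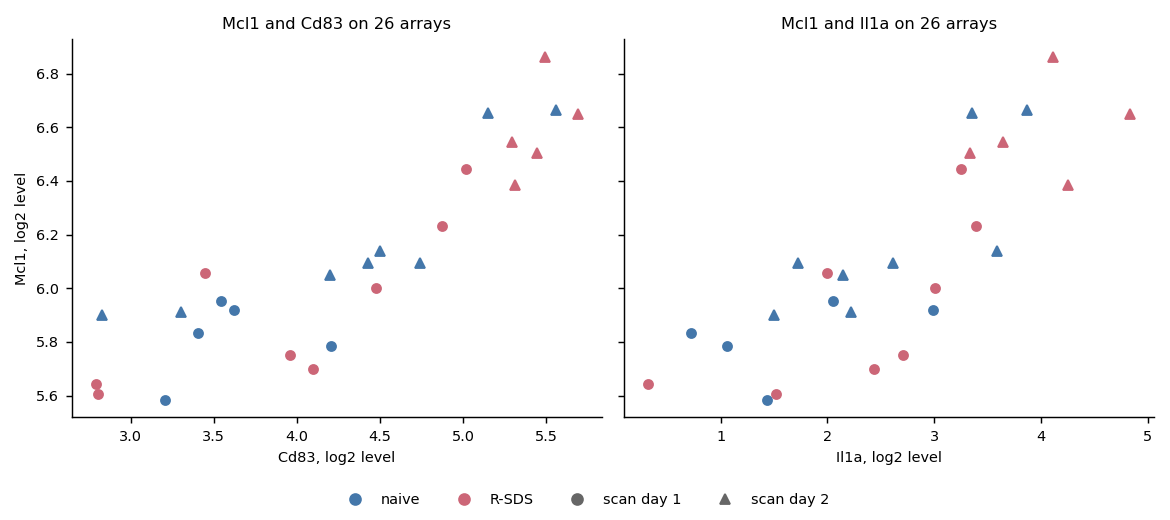
Level of Mcl1 against that of Cd83 (left) and Il1a (right) on the 26 arrays, all in log2 relative to the array's 75th percentile. Colours give the condition and shapes the scan day. Pearson r was 0.88 and 0.82, and arrays of the second day lie mostly towards the upper right.

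Around the members, 107 of 125 genes of 7 pathway lists were tested: p53 regulators, p53 targets, other Bcl2 family members, caspases and the apoptosome, Gadd45 partners, cyclins with their kinases and inhibitors, and upstream factors of Bcl2l11, Gadd45 and Mcl1. Of these 107, 0 passed an adjusted p of 0.05 in limma in the stress, interaction and genotype comparisons, and 1 passed between regions. It was Mapk11, a p38 kinase of the pathway that Gadd45 proteins activate, which was lower in the NAc, at -0.999 ± 0.16 on the log2 scale in NAc minus mPFC (adjusted p 0.00787). That is 1 of 107 where 0.897% of all genes passed. Slides are nested in regions, and with slide as a random block the adjusted p of Mapk11 was 0.23. Under that fit 0 genes of any kind passed between regions, with 1420 at an unadjusted p under 0.05.

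The list medians of the averaged stress effect were 0.12 for p53 targets (12 of 22 above 0), 0.11 for p53 regulators (14 of 18), 0.15 for other Bcl2 family genes (9 of 13) and -0.06 for caspases and the apoptosome (8 of 18). They were 0.04 for Gadd45 partners (8 of 13), -0.04 for the cell cycle list (7 of 14) and 0.00079 for upstream factors (6 of 12), against 0.04 over all genes. At an unadjusted p under 0.05, 4 of 22 p53 targets, 1 of 18 p53 regulators and 1 of 14 cell cycle genes were counted for the averaged stress effect, and 0 genes of the other 4 lists, against 5.47% of all genes. Whether the 4 of 22 exceeds that share was not tested. The list genes named next were picked by the smallest p in this same effect. The p53 target with the smallest p was Btg2, an antiproliferative early-response gene, at 0.85 ± 0.23 (unadjusted p 0.00138, adjusted p 0.54). Trp53inp1 gave 1.12 ± 0.41 (adjusted p 0.86 in limma) and Ccng1, which encodes cyclin G1, 1.25 ± 0.50 (adjusted p 0.89). Among regulators the deacetylase gene Sirt1 gave 1.44 ± 0.60 (adjusted p 0.89 in limma), and in the cell cycle list Cdk6 gave 1.50 ± 0.60 (adjusted p 0.89). Bcl2l1, which encodes the survival factor BCL-XL, gave -0.52 ± 0.26 (adjusted p 0.91). The averaged stress effect on Trp53 itself was -0.47 ± 0.39 (adjusted p 0.98).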

How the data were processed

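Single-colour Agilent arrays measured Cy3-labelled cDNA from 26 pools of sorted microglia. The deposited scanner files hold spot intensity, not on a log scale, and the submitters' processing notes name Agilent Feature Extraction 11.0.1.1, and the processed signal is already background-subtracted per the file headers. The deposited matrix holds log2 values that matched the scanner values of each array up to a constant.

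Levels were log2 of the processed signal minus log2 of the array's 75th percentile over spots that are not controls. Control spots and spots with outlier flags were left out, which removed 108 of 55681 probes. Probes were named by accession through a RefSeq table of GRCm38.p6, which matched 27980 of 29744. The file headers name build mm9, so coordinates are given only for the RefSeq promoter windows. Probes with signal well above background on 3 or more arrays of 1 group were kept, and the brightest stood for its gene. limma 3.58.1 (R 4.3.3; lmFit and eBayes, two-sided) fitted 8 group means over all 26 arrays, with Benjamini-Hochberg adjustment over 24738 genes and a threshold of 0.05. The fit was tested on simulated data with independent errors. These held no slide or scan day effect, so they cannot show how the fit behaves where such effects are present.

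The text names all 10 members; list genes past the threshold, or otherwise up to 3 with the smallest p in the averaged stress effect; and the 2 most similar genes of each member detected on all arrays. Slides and scan days were read from the scanner files: 4 slides, 2 per region, and 1 slide of each region on each of 2 days. Members, lists and tests were chosen with earlier results of these data known. Replicate numbers were not treated as pairing the samples. Alternatives covered background correction (normexp, offset 50), normalization, the filter, probes, slide, scan day, replicate number, array weights, samples in the fit, the variance estimate and each array left out. The planned mean signal was not used here, and the median signal took its place, a choice made after the files had been seen.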

Additional observations from a re-analysis of the deposited data

Results flagged for a closer look

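Gadd45a stood out on 1 array: TLR-DKO NAc R-SDS replicate 4 read 0.79, while the other 3 arrays of the group lay between -4.28 and -3.70. The gap to the nearest array was 0.89 of the group's range. This was 1 of 20 groups of 4 arrays examined over the members, and chance marks about 1 group in 20 by this rule.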

How the results depend on the processing

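The count of members past the threshold stayed at 0 under all 382 combinations of comparison and alternative. Of 1114 alternative values of the 35 reported differences, 0 crossed the threshold and 25 changed sign: 8 of 480 under another fit, 8 of 564 with 1 array left out and 9 of 70 within a single slide or scan day, where there is no test. The cause of the sign changes was not tested. Mcl1, averaged stress effect, was -0.037 with array weights. Trp53 in TLR-DKO mPFC was -0.029 with normexp, -0.037 with median centring and -0.20 with array weights, and ran from -0.82 to 0.62 with single arrays left out. Gadd45g in TLR-DKO NAc was 0.019 with normexp, 0.11 with quantile normalization, 0.24 with slide and 0.32 with scan day as a block, and ran from -0.53 to 0.40 with single arrays left out. With single arrays left out, the averaged stress effect on Cdkn1a ran from -0.014 to 0.71 and the effect on Mdm2 in TLR-DKO NAc from -0.11 to 1.83.

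Same-numbered arrays were not treated as paired. Of 85 such pairs, 25 had deviations correlated above 0.1, which does not settle whether the numbers pair the samples. Every replicate 1 was scanned on the first day and every replicate 3 or 4 on the second, so likeness by number was not separated from scan day. Same-numbered pairs were somewhat more alike (median 0.064) than pairs with different numbers (25 of 210 above 0.1, median -0.035). Of 26 arrays, 15 correlated best with one of their own number. With the replicate block, 0 members passed in any comparison, and the averaged interaction of Gadd45g was 2.80 with an SE of 0.80 (adjusted p 0.85). Over all genes, counts past the threshold ran from 0 to 10 for the averaged stress effect (10 with array weights, 0 as reported), from 2 to 14 for the averaged genotype effect (5 as reported) and from 0 (slide as a random block) to 447 (array weights) for the region effect (222 as reported, and 65 to 371 with single arrays left out). For the other comparisons they stayed at 13 or fewer. Weak signal limits Gadd45a, Bcl2l11, Pmaip1 and Cdkn1a, which were not well above background on every array.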
